A study of Homo sapiens with 6 samples.

Results

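The genes described are 42 genes of excision, mismatch, end-joining and translesion repair, chosen by name as members of these pathways, with earlier results of these data known, out of 57773 gene identifiers in the deposited table. They comprise 12 genes of nucleotide excision repair, 16 of base excision repair, 3 of mismatch repair, 7 of non-homologous end joining and 4 translesion polymerases, and each name matched 1 identifier. Expression was measured by poly(A) RNA sequencing in RPE1, a telomerase-immortalised human cell line of retinal pigment epithelial origin. The tested cells received 2.5 µM Nutlin-3, which keeps the ubiquitin ligase MDM2 from binding p53 so that p53 accumulates, and their controls received the solvent DMSO. Both treatments lasted 24 h, and there were 3 libraries of each. The cell line and its growth medium were shared by both groups, no damaging agent was added, and the labels do not say whether the triplicates were separate cultures, so the p-values reflect the spread among these libraries alone, which may be technical.

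DNA repair pathways are divided by the kind of lesion they handle. Nucleotide excision repair cuts out a short stretch of DNA around bulky adducts and ultraviolet photoproducts, which are found either by surveillance of the whole genome or by a stalled RNA polymerase. Base excision repair begins with a DNA glycosylase that releases a single damaged base, after which the abasic site is cut, filled and sealed. Mismatch repair corrects errors of replication, non-homologous end joining seals double-strand breaks, and translesion polymerases copy past damage that stops the replicative polymerases. p53 is a transcription factor known to induce several genes of lesion recognition and bypass in human cells, and its activation also halts the cell cycle, when many genes used in DNA replication are lowered.

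The library labels were checked first. CDKN1A, the cell-cycle inhibitor that p53 induces, averaged 60.5 ± 2.34 RPKM in Nutlin-3 cells and 8.36 ± 0.463 RPKM in DMSO cells (SD, n = 3 each), and MDM2 was 3.66-fold higher with Nutlin-3. All 8 proliferation markers examined fell, to between 27.3% and 34.0% of their DMSO level, and their summed reads were 17454 to 20120 per Nutlin-3 library and 54898 to 84685 per DMSO library. In bulk RNA, fewer cycling cells and less RNA per cycling cell cannot be told apart. The part of this marker change in the repair gene values was not tested. Of the markers of differentiated pigment epithelium, RPE65 had at most 2 reads, TYR at most 1, RLBP1 at most 13, PMEL at most 21 and BEST1 at most 44 reads in any library, whereas MITF had 1383 to 1905 reads. KRT8, KRT18 and VIM, listed for the RPE1 line, were abundant in all 6 libraries. CD3E and CDH5 were at 0 reads and PTPRC had at most 6 reads, but CD68 of the blood list had 1648 to 2408 reads. The libraries held 31.6 M to 37.0 M recovered reads with Nutlin-3 and 28.4 M to 41.0 M with DMSO, and the 42 repair genes had between 227 and 23824 reads each in a library.

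RPKM are reads per kilobase of gene, scaled to the number of reads in the library. The length behind the deposited values was that of the gene from end to end with its introns, so they compare 1 gene between libraries but not 1 gene with another. Genes averaging 0.05 RPKM or more were tested with limma on log2(RPKM + 0.05), and "rose" and "fell" below mean a Benjamini-Hochberg adjusted p under 0.05 over all 22859 genes tested. On this scale the log2 fold change of a gene with low RPKM is smaller than its true size, so folds and percentages are given separately, as quotients of the mean RPKM.

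Promoter windows of RefSeq (GRCh38.p14, 250 bases before to 50 bases after each transcription start) were available for 37 of the 42 genes. They were searched on both strands for spellings of sites that are known from other work to matter in p53 and cell-cycle responses. The p53 consensus element, a pair of 10-base consensus sequences at most 13 bases apart, was found in the windows of 10 of 27305 genes (0.0366%), and among the repair genes in DDB2 alone. The cell-cycle homology region, or CHR (TTTGAA or TTCGAA), was found in 19.5% of all genes. An E2F site (TTTCCCGC, TTTGGCGC, TTTCGCGC or TTTGCCGC) was found in 3.99% of all genes. The stretches below are a selection, shown for DDB2 as the 1 repair gene with a p53 element and for 5 other genes with changes of at least 1.5-fold, with the matched letters in capitals and each sequence written in the direction of its gene.
DDB2, p53 element: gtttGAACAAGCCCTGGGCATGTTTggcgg
XPC, E2F spelling: cctgcgcccTTTCCCGCctctcgcgagaac
MSH6, E2F spelling: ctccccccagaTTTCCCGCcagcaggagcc
UNG, E2F spelling: gagggaggtttTTTGCCGCgaaaagaccac
MUTYH, CHR spelling: gagcgcagaggcTTTGAAggctacctctgg
NEIL3, 250 bases before the start, CCAAT and CHR spellings: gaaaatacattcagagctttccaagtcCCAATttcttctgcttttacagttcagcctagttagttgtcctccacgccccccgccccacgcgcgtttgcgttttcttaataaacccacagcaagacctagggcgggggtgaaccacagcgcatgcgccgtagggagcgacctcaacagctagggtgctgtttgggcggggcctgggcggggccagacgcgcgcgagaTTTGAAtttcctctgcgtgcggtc

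On GRCh38.p14 these stretches lie at chr11:47214975-47215004 on the plus strand for DDB2, chr3:14178822-14178851 on the minus strand for XPC, and chr2:47783137-47783166 on the plus strand for MSH6. Those of UNG and MUTYH lie at chr12:109098098-109098127 on the plus strand and chr1:45340317-45340346 on the minus strand, and that of NEIL3 at chr4:177309624-177309873 on the plus strand. The DDB2 element began 5 bases after the start base, the CHR spelling of NEIL3 lay 24 bases before the start, and the E2F spelling of MSH6 began 3 bases after it. A CHR spelling in DDB2 overlapped the p53 element. Of the 14 genes with a window that fell, 4 had a CHR spelling (UNG, MUTYH, NEIL3 and XRCC1), 3 had an E2F spelling (UNG, MSH6 and XRCC6) and 10 had CCAAT. Of the 10 that rose, 2 had a CHR spelling (DDB2 and ERCC6), 1 had an E2F spelling (XPC) and 5 had CCAAT. Among 12 that did not pass the test, 1 had a CHR spelling, 3 had an E2F spelling (PMS2, MSH3 and REV3L) and 5 had CCAAT, a spelling found in 39.7% of all genes. These matches describe the letters alone.

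Of the 42 repair genes, 41 entered the test: 11 rose and 16 fell with Nutlin-3, and 14 did not pass. Over all genes tested, 18.3% rose and 16.6% fell, 34.9% in either direction. The repair genes were sequenced more deeply than most, and among the 12338 genes averaging 200 reads or more 28.2% rose and 24.0% fell, 52.3% in either direction. Against that level, the 26.8% of repair genes that rose were close to the background and the 39.0% that fell were above it, with no test of the difference. The median log2 fold change of the repair genes was -0.07, beside 0.001 for all genes tested. When the recovered reads were scaled by their own totals instead of the authors' library sizes, the median of all genes shifted to -0.08, 9 repair genes rose and 19 fell, and over all genes 2868 rose and 5481 fell, against 4184 and 3791 in the deposited scaling. In 32 of the 41 genes (78.0%) the 2 groups of libraries did not overlap, as in 49.7% of all genes tested.

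**Figure D1:**
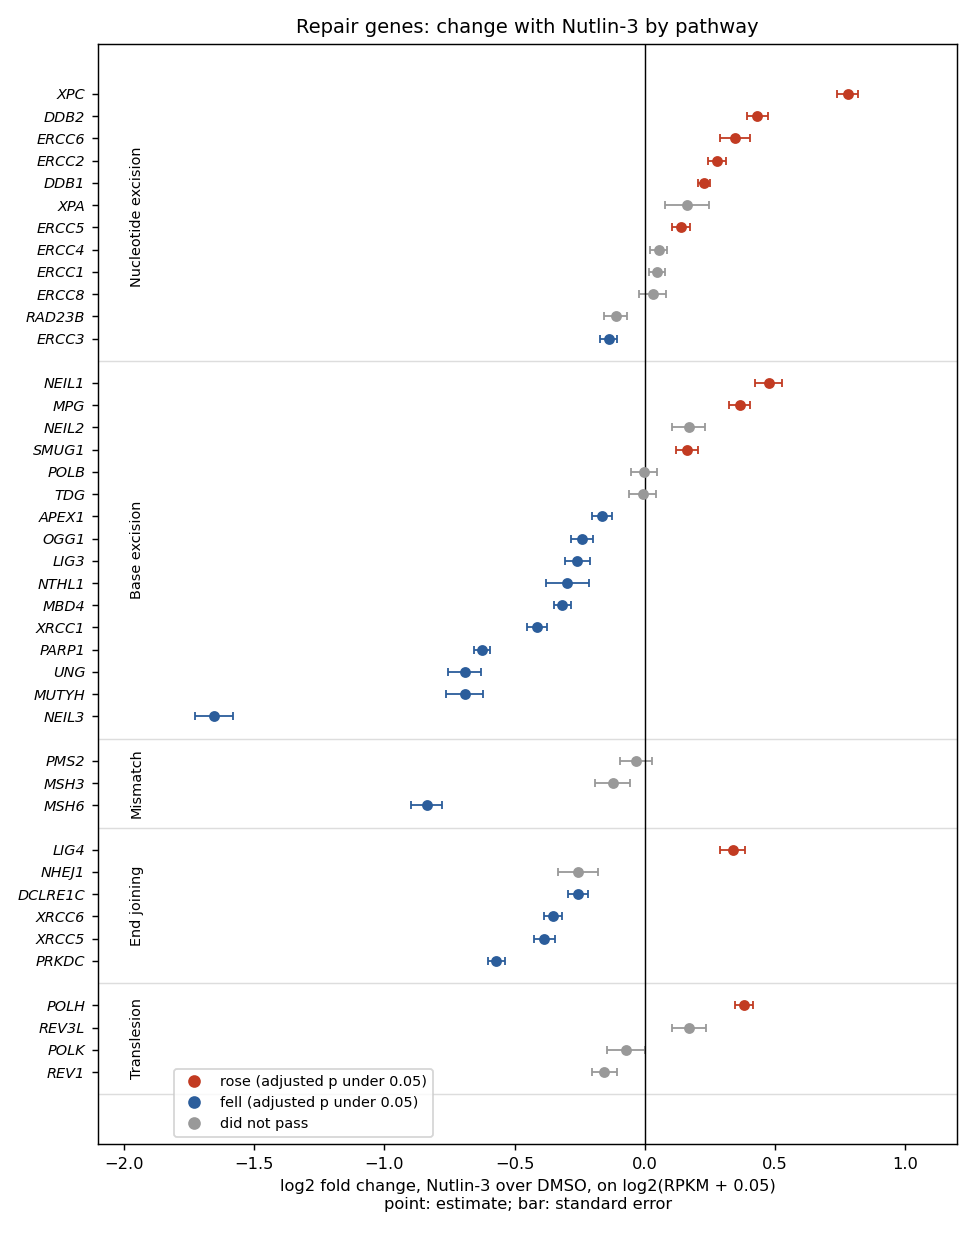
Log2 fold change, Nutlin-3 over DMSO, of the 41 repair genes tested (points, with the standard error as bars), grouped by pathway and coloured by whether the gene rose, fell or did not pass limma's test. XPC has the highest value, at 0.78, and NEIL3 the lowest, at -1.65, and the genes of nucleotide excision repair lie mostly above 0 while those of base excision repair lie mostly below.

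The pathways differed in their counts, which stand beside 28.2% rising and 24.0% falling among all genes averaging 200 reads or more. In nucleotide excision repair 6 of 12 genes rose and 1 fell (median log2 fold change 0.15), and in base excision repair 3 of 16 rose and 10 fell (median -0.25). Of the mismatch repair genes 0 rose and 1 of 3 fell, of the 6 end-joining genes tested 1 rose and 4 fell (median -0.30), and of the 4 translesion polymerases 1 rose and 0 fell. Among the 41 genes tested, only 1, XPC, rose by at least 1.5-fold on the log2 scale of the test. By the same measure 5 fell (NEIL3, MSH6, MUTYH, UNG and PARP1). Such calls were made upwards in 3.45% and downwards in 5.46% of all genes tested, and in 3.51% and 5.82% of those averaging 200 reads or more. XRCC4, whose mean RPKM was too low for the test, was at 63.6% of its DMSO level and is not in these counts.

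In nucleotide excision repair, the 2 largest rises were those of XPC and DDB2, which recognise damage across the genome. XPC, the subunit that senses helix distortion, measured 2.38, 2.55 and 2.43 RPKM in Nutlin-3 libraries, against 1.35, 1.43 and 1.44 RPKM in DMSO libraries. Every Nutlin-3 library lay above every DMSO library, and 49.7% of all genes tested likewise had no overlap. The mean of XPC was 1.74-fold higher (log2 fold change 0.78 ± 0.040 SE, limma adjusted p = 0.000232). Exons of LSM3 and 2 further annotated genes on the opposite strand cover 30.4% of the exon bases of XPC. It is not given in the sources used here whether counting used strand.

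DDB2, the photoproduct-binding subunit of the UV-DDB complex, measured 0.566, 0.528 and 0.539 RPKM in Nutlin-3 libraries, against 0.402, 0.391 and 0.379 RPKM in DMSO libraries. The groups did not overlap, as in 49.7% of all genes tested, and DDB2 rose 1.39-fold (log2 fold change 0.43 ± 0.042 SE, limma adjusted p = 0.00132). Its partner DDB1, which joins the complex to the CUL4 ubiquitin ligase, rose 1.17-fold, to 6.79 ± 0.125 RPKM in Nutlin-3 cells, against 5.79 ± 0.0442 RPKM in DMSO cells (SD, n = 3 each, limma adjusted p = 0.0016). RAD23B, which stabilises XPC, was at 92.5% of its DMSO level and did not pass the test (limma adjusted p = 0.117). With limma voom on the recovered reads, where 24.3% of all genes fell, RAD23B fell (adjusted p = 0.0144).

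Recognition at stalled RNA polymerase uses ERCC6, the remodeler also called CSB, and ERCC8, the ubiquitin ligase subunit called CSA. ERCC6 rose 1.28-fold, with 2.75 ± 0.0854 RPKM in Nutlin-3 cells and 2.16 ± 0.144 RPKM in DMSO cells (SD, n = 3 each, limma adjusted p = 0.00797). RefSeq places the gene PGBD3 inside the ERCC6 locus, so its reads could not be assigned to ERCC6 with certainty. ERCC8 was at 1.03-fold and did not pass (limma adjusted p = 0.714), with a pseudogene over 28.3% of its exon bases on the same strand.

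Of the genes that open the helix and verify the lesion, the 2 helicase subunits of TFIIH moved apart. ERCC2 (XPD) rose 1.22-fold, with 4.12 ± 0.134 RPKM in Nutlin-3 cells and 3.39 ± 0.0829 RPKM in DMSO cells (SD, n = 3 each, limma adjusted p = 0.00316). ERCC3 (XPB) fell to 90.6% of its DMSO level, the only gene of this pathway to fall (limma adjusted p = 0.0273). The call did not survive leaving out any 1 library except DMSO replicate 1, with adjusted p between 0.0533 and 0.0950. XPA, the scaffold of the incision complex, had 0.412 to 0.479 RPKM in Nutlin-3 libraries and 0.378 to 0.444 RPKM in DMSO libraries, overlapping ranges that did not pass the test (limma adjusted p = 0.211).

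Values of the incision nucleases lay close together between the groups. ERCC5 (XPG), which cuts on the 3' side, rose 1.10-fold (limma adjusted p = 0.0321), but the call was lost without any library other than DMSO replicate 3 (adjusted p between 0.0627 and 0.0970) and when reads were scaled by their own totals (adjusted p = 0.433). Exons of the gene BIVM and the BIVM-ERCC5 readthrough cover 63.2% of the ERCC5 exon bases on the same strand, so its reads are uncertain. ERCC1 and ERCC4 (XPF), which form the 5' nuclease, were at 1.03-fold and 1.04-fold and did not pass (limma adjusted p = 0.286 and 0.283). Exons of CD3EAP and AC010401.1 on the opposite strand cover 28.6% and 25.7% of the exon bases of ERCC1 and ERCC4.

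**Figure D2:**
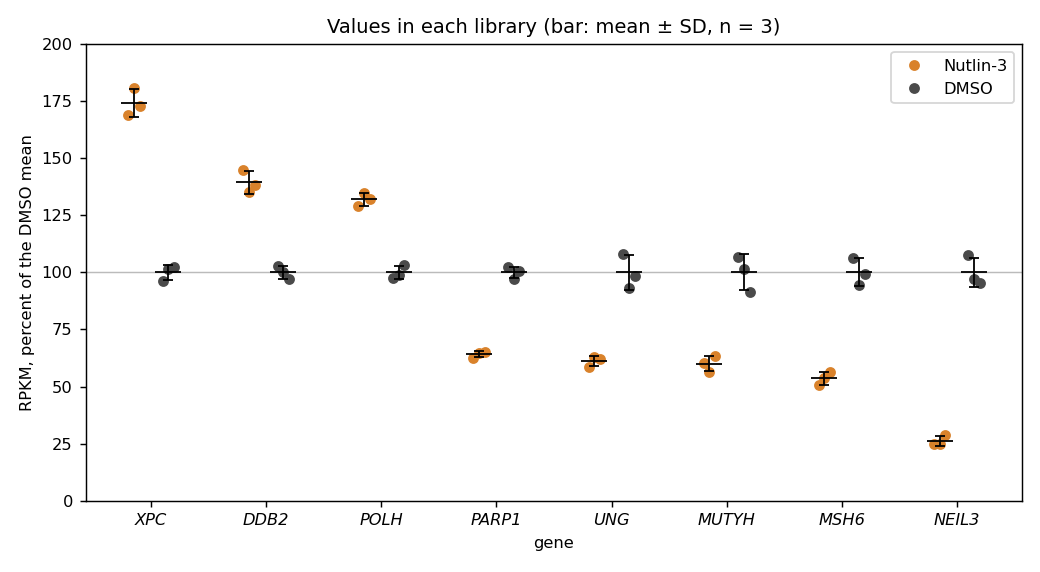
RPKM of 8 repair genes in each of the 3 Nutlin-3 and 3 DMSO libraries as a percentage of the DMSO mean (points), with the mean and SD of each group as bars. The Nutlin-3 libraries of XPC, DDB2 and POLH all lie above the DMSO libraries, with means of 174%, 139% and 132%, and those of PARP1, UNG, MUTYH, MSH6 and NEIL3 all lie below, down to 26.2%.

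Among the 11 DNA glycosylases of base excision repair 6 fell and 3 rose. Of all genes averaging 200 reads or more, 24.0% fell and 28.2% rose, so the rising share of the glycosylases, 27.3%, was close to the background. NEIL3, which acts on oxidised bases and unhooks some interstrand crosslinks in replicating DNA, had the largest change of all the repair genes. It measured 0.153, 0.153 and 0.177 RPKM in Nutlin-3 libraries, against 0.659, 0.597 and 0.585 RPKM in DMSO libraries, from 257, 290 and 286 reads with Nutlin-3 and 1479, 944 and 1007 reads with DMSO. No library of either group came near the other group, and 49.7% of all genes tested likewise had no overlap. NEIL3 fell to 26.2% of its DMSO level (log2 fold change -1.65 ± 0.072 SE, limma adjusted p = 0.000165). This is about the level to which the proliferation marker MKI67 fell (27.3%). On the recovered reads, where no pseudocount of that size enters, the log2 fold change was -1.94.

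UNG and MUTYH also fell with no overlap between the groups, as in 49.7% of all genes tested. UNG, which removes uracil from DNA, measured 1.71, 1.84 and 1.81 RPKM in Nutlin-3 libraries, against 3.16, 2.73 and 2.87 RPKM in DMSO libraries. Its mean was 61.2% of the DMSO level (log2 fold change -0.69 ± 0.063 SE, limma adjusted p = 0.00113). MUTYH, which excises adenine paired with oxidised guanine, measured 0.636, 0.598 and 0.669 RPKM in Nutlin-3 libraries, against 1.13, 1.07 and 0.966 RPKM in DMSO libraries. Its mean was 60.0% of the DMSO level (log2 fold change -0.69 ± 0.072 SE, limma adjusted p = 0.00165). Exons of TOE1 on the opposite strand cover 14.1% of the MUTYH exon bases.

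The other 3 glycosylases that fell changed less. MBD4, which acts on mismatches at methylated CpG sites, fell to 80.0% of its DMSO level (limma adjusted p = 0.00171), and OGG1, the main enzyme for oxidised guanine, fell to 83.1% (adjusted p = 0.0108). On the opposite strand, exons of CAMK1 and TADA3 cover 29% of the OGG1 exon bases and those of TSC2 cover 16.5% of the NTHL1 exon bases. NTHL1, which removes oxidised pyrimidines, fell to 80.7% (limma adjusted p = 0.0411). The NTHL1 call was lost without DMSO replicate 1 or 3 or Nutlin-3 replicate 1 or 2, with adjusted p between 0.0899 and 0.110, and without a filter on low values (adjusted p = 0.0665).

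NEIL1, which removes oxidised pyrimidines, and MPG, which removes alkylated purines, rose. NEIL1 had 1.52 ± 0.0268 RPKM in Nutlin-3 cells and 1.08 ± 0.0675 RPKM in DMSO cells (1.41-fold, SD, n = 3 each, limma adjusted p = 0.00178). Exons of genes on the opposite strand, among them MAN2C1, cover 30.5% of the NEIL1 exon bases. MPG had 4.26 ± 0.178 RPKM in Nutlin-3 cells and 3.30 ± 0.0871 RPKM in DMSO cells (1.29-fold, SD, n = 3 each, limma adjusted p = 0.00203). Exons of NPRL3 on the opposite strand cover 27.3% of the MPG exon bases. The 3 members of the NEIL family thus lay on both sides, as NEIL2 was at 1.13-fold without passing the test (limma adjusted p = 0.106, or 0.0362 without DMSO replicate 1). SMUG1, another uracil glycosylase, rose 1.13-fold (limma adjusted p = 0.0344), but leaving out any 1 of the 6 libraries lost the call, with adjusted p between 0.0521 and 0.100, as did scaling by the reads' own totals (adjusted p = 0.230) and testing without a filter (adjusted p = 0.0575). TDG, which removes thymine and modified cytosines, was at 99.3% of its DMSO level with overlapping libraries (limma adjusted p = 0.919).

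After the glycosylase step, 4 of 5 genes fell and 0 rose, beside 24.0% and 28.2% of all genes averaging 200 reads or more. PARP1, which marks strand breaks with poly(ADP-ribose), measured 1.85, 1.92 and 1.92 RPKM in Nutlin-3 libraries, against 3.02, 2.87 and 2.97 RPKM in DMSO libraries. The groups did not overlap, as in 49.7% of all genes tested, and PARP1 fell to 64.2% of its DMSO level (log2 fold change -0.63 ± 0.032 SE, limma adjusted p = 0.00022). XRCC1, the scaffold of single-strand break repair, fell to 74.2% (limma adjusted p = 0.00125), and its partner LIG3, the ligase that seals the nick, fell to 82.8% (adjusted p = 0.0122). Exons of genes annotated on the opposite strand cover 17.5% of the XRCC1 exon bases and 30.5% of the LIG3 exon bases. APEX1, which cuts the abasic site, fell to 89.2%, with 50.3 to 53.2 RPKM in Nutlin-3 libraries and 55.5 to 59.8 RPKM in DMSO libraries (limma adjusted p = 0.0251). That call was lost without DMSO replicate 1 or 3 or Nutlin-3 replicate 1 or 2 (adjusted p between 0.0593 and 0.0865). POLB, which fills the gap, was at 99.8% of its DMSO level (limma adjusted p = 0.971).

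In mismatch repair, MSH6 and MSH3 are alternative subunits of the complexes that recognise mispaired DNA, MSH6 for single mismatches and small loops and MSH3 for larger loops. MSH6 measured 0.510, 0.541 and 0.566 RPKM in Nutlin-3 libraries, against 1.07, 0.947 and 0.996 RPKM in DMSO libraries. The groups did not overlap, and MSH6 fell to 53.7% of its DMSO level (log2 fold change -0.84 ± 0.060 SE, limma adjusted p = 0.000555). Exons of FBXO11 on the opposite strand cover 16.2% of the MSH6 exon bases. MSH3 was at 88.6% and did not pass (limma adjusted p = 0.224). Its libraries did not overlap either, as in 49.7% of all genes tested. MSH3 fell with limma voom on the recovered reads (log2 fold change -0.17, adjusted p = 0.00656). PMS2, the nuclease subunit of MutLα, was at 97.5% (limma adjusted p = 0.71), a value that is uncertain because near-identical pseudogene copies of PMS2 exist in the human genome.

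In non-homologous end joining, all 3 genes that bind the broken end fell, together with the nuclease gene. Of all genes averaging 200 reads or more, 24.0% fell. PRKDC, the catalytic subunit of DNA-PK, had 2.04 ± 0.0429 RPKM in Nutlin-3 cells and 3.05 ± 0.0825 RPKM in DMSO cells, a fall to 66.8% (SD, n = 3 each, limma adjusted p = 0.000273). XRCC5 and XRCC6, the Ku80 and Ku70 subunits of the ring that slides onto DNA ends, fell to 76.2% and 78.2% of their DMSO levels (limma adjusted p = 0.00175 and 0.00129). DCLRE1C, the Artemis nuclease that opens hairpins, fell to 81.7% (limma adjusted p = 0.00546). These 4 genes had no overlap between the groups of libraries, as in 49.7% of all genes tested.

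The ligation complex was split. LIG4, the ligase, rose 1.27-fold, with 2.69 ± 0.0887 RPKM in Nutlin-3 cells and 2.12 ± 0.115 RPKM in DMSO cells (SD, n = 3 each, limma adjusted p = 0.0052). XRCC4, the partner that stabilises LIG4, had a mean RPKM too low for the test because its span is long. It measured 0.0352, 0.0342 and 0.0347 RPKM in Nutlin-3 libraries, against 0.0546, 0.0525 and 0.0563 RPKM in DMSO libraries, or 63.6% of the DMSO level with no overlap. Its 291 to 338 reads per Nutlin-3 library and 432 to 638 reads per DMSO library could be tested with limma voom, by which XRCC4 fell (log2 fold change -0.65, adjusted p = 2.22e-08). NHEJ1 (XLF), which bridges the ends with XRCC4, was at 79.1% of its DMSO level, just outside the threshold on RPKM (limma adjusted p = 0.0504), and it fell on the recovered reads (limma voom log2 fold change -0.35, adjusted p = 0.000293) and under 3 of the other settings (adjusted p between 0.0250 and 0.0490). Exons of the annotated gene AC068946.1 cover 65.4% of the NHEJ1 exon bases on the same strand, so the reads of NHEJ1 are uncertain.

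Of the translesion polymerases, POLH, which copies accurately past thymine dimers, measured 1.11, 1.16 and 1.14 RPKM in Nutlin-3 libraries, against 0.839, 0.851 and 0.886 RPKM in DMSO libraries. The groups did not overlap, and POLH rose 1.32-fold (log2 fold change 0.38 ± 0.034 SE, limma adjusted p = 0.00104). The others did not pass on RPKM. POLK, which bypasses bulky guanine adducts, was at 94.5% of its DMSO level (limma adjusted p = 0.506). REV1, which inserts cytosine and recruits the other polymerases, was at 88.9% (limma adjusted p = 0.061), and REV3L, the catalytic subunit of polymerase zeta, was at 1.14-fold (adjusted p = 0.106). REV1 and REV3L each had no overlap between the groups, as in 49.7% of all genes tested. With limma voom on recovered reads REV1 fell (adjusted p = 0.00351) and REV3L rose (adjusted p = 0.00164). By that test, in which 26.0% of all genes rose and 24.3% fell, 12 of the 42 repair genes rose and 21 fell. Those shares cover genes averaging at least 10 reads, whereas every repair gene had at least 227 reads per library, so depth was not matched.

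Levels were compared between genes as RPKM made anew with the merged length of the exons, using exon lengths of GENCODE 29. In DMSO cells XRCC6 was highest at 120, followed by XRCC5 at 85.7, APEX1 at 78.9, RAD23B at 46.3 and PRKDC at 37.0, so that the DNA-PK components stood among the 5 highest of the 42. The lowest were NEIL1 at 1.29 and DDB2 at 1.94. The level of DDB2 averaged 2.70 in Nutlin-3 cells and 1.94 in DMSO cells, rank 37 of the 42 with Nutlin-3 and rank 41 with DMSO. NEIL3 averaged 2.89 ± 0.252 in Nutlin-3 cells and 11.0 ± 0.713 in DMSO cells (SD, n = 3 each), which placed it 36 in the order of the 42 genes with Nutlin-3 and 12 with DMSO. XPC stood at rank 8 with Nutlin-3 and rank 17 with DMSO, and PARP1 at rank 12 with Nutlin-3 and rank 6 with DMSO. LIG4 averaged 6.69 in Nutlin-3 cells and 5.28 in DMSO cells, whereas XRCC4 averaged 3.58 in Nutlin-3 cells and 5.62 in DMSO cells. The DMSO levels of these partners lay within the spread of the libraries, so their order in DMSO cells is not given. Other neighbours in the order, such as XRCC1 and UNG, at 15.3 each in DMSO cells, did not differ beyond their spread. The levels depend on the exon models used, and for ERCC5 and SMUG1 the length behind the RPKM was 0.452 and 0.358 of the GENCODE span, so the levels of these genes are less certain.

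**Figure D3:**
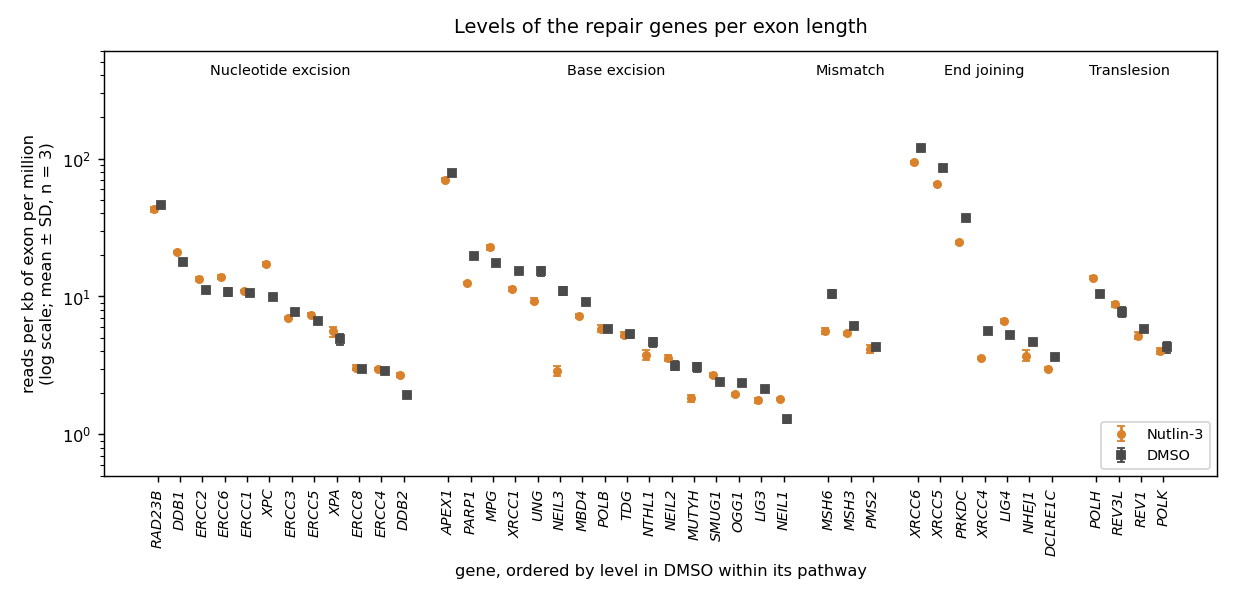
Level of each of the 42 repair genes in RPKM made with the merged exon length (log axis), as the mean of 3 Nutlin-3 libraries and the mean of 3 DMSO libraries with the SD as bars, ordered within each pathway by the DMSO level. XRCC6 is highest at 120 in DMSO cells and NEIL1 lowest at 1.29, and NEIL3 shows the widest gap between the groups, with 2.89 in Nutlin-3 cells and 11.0 in DMSO cells.

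A list of 56 other genes of the same 5 pathways was examined beside them, and 53 of these were tested. Among them 9 (17.0%) rose and 27 (50.9%) fell, and their median log2 fold change was -0.16. Over all genes tested 18.3% rose and 16.6% fell, and among those averaging 200 reads or more 28.2% and 24.0%, with no test of the difference. In nucleotide excision repair 6 of 18 rose and 5 fell, and the changes were small, from 67.9% of the DMSO level for the lowest gene to 124% for the highest. In base excision repair 1 of 9 tested rose and 7 fell, in mismatch repair 0 of 3 rose and 2 fell, in end joining 1 of 12 tested rose and 8 fell, and around translesion synthesis 1 of 11 tested rose and 5 fell.

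The genes of this list that changed by at least 2-fold all fell. The share of all genes that changed by as much is not given. FEN1, the flap endonuclease of long-patch base excision and of lagging-strand replication, had 6.61 ± 0.562 RPKM in Nutlin-3 cells and 19.5 ± 1.36 RPKM in DMSO cells (33.9%, SD, n = 3 each, limma adjusted p = 0.000234). PARP2, the relative of PARP1, had 1.08 ± 0.0602 RPKM in Nutlin-3 cells and 2.42 ± 0.143 RPKM in DMSO cells (44.7%, adjusted p = 0.000262 by limma). EXO1, the exonuclease of mismatch repair, fell to 25.3% of its DMSO level (limma adjusted p = 0.000299). POLQ, the polymerase of microhomology-mediated end joining, and LIG1, the ligase of replication, fell to 28.7% and 43.2% (limma adjusted p = 0.000176 and 0.000197). USP1, which removes ubiquitin from PCNA, fell to 38.3% (limma adjusted p = 0.000176).

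**Figure D4:**
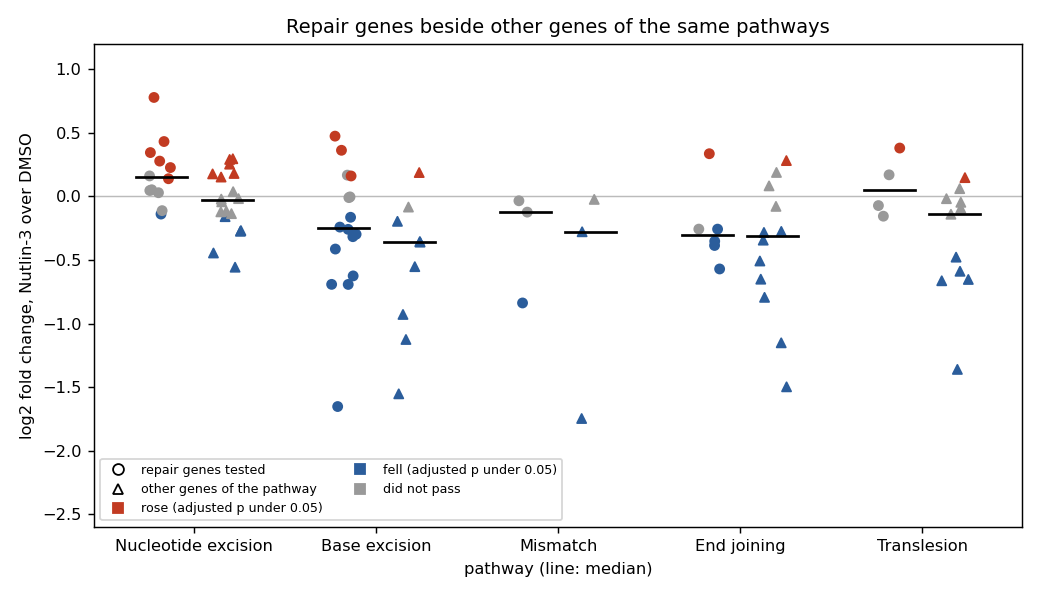
Log2 fold change, Nutlin-3 over DMSO, of the repair genes (circles) and of the other listed genes of each pathway (triangles), with the median of each set as a line. The medians of the repair genes are 0.15 in nucleotide excision, -0.25 in base excision, -0.12 in mismatch, -0.30 in end joining and 0.05 in translesion repair, and EXO1 has the lowest value of all, at -1.75.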

How the data were processed

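The 6 libraries were grouped by their labels, 3 Nutlin-3 and 3 DMSO. Stranded TruSeq libraries of poly(A) RNA were sequenced, per the labels' protocols. TopHat2, CASAVA 1.8.2, edgeR and hg19 were used, per the submitters' processing notes. Which counter and annotation were used is not given in the sources used here. Values are RPKM made by the authors, in 1 deposited table of which 0 columns were left unmapped. With the gene span of GENCODE 29 as the length, 90.3% of low values came to whole reads (tolerance 0.01 read), and with the merged length of its exons 32.9% did. Whole reads were recovered from spans for 27538 genes and from the ratios between libraries for 8825 genes, where a common factor may have been lost. The authors' library sizes were 0.962 to 0.981 times the recovered reads in Nutlin-3 libraries and 1.03 to 1.05 times in DMSO libraries. Chi-square per gene was 1.63 to 4.82 within groups, so replicates differed by more than sampling noise and each library counted once.

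The deposited RPKM were taken to log2(RPKM + 0.05) and tested with limma 3.58.1 in R 4.3.3 (trended variance, no term but the group, Benjamini-Hochberg adjustment over 22859 genes), after a check on simulated data. limma voom was run on recovered reads with a mean of at least 10. Of the 57773 identifiers, 52338 had a symbol, from a separate list of current gene names or, where that had none, from GENCODE 29. GENCODE 29 was used for names, lengths and overlaps only because it is not on hg19. Each repair gene is described by role, with every library given for those called with a change of at least 1.5-fold and for DDB2, XPC and POLH. Of the other genes, up to 4 per pathway changed by at least 2-fold were named. The repair genes, the lists and the tests were chosen with earlier results of these data known. Alternatives were other pseudocounts, filters and scalings, a replicate block and leaving out each library. Scaling by the recovered totals was added after seeing the data.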

Additional observations from a re-analysis of the deposited data

How the results depend on the processing

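Repair gene counts were 9 to 10 rising and 13 to 15 falling when 1 library at a time was left out, which also reduces the samples. The falling count was then 8 to 10 in base excision and 0 to 1 in nucleotide excision repair, and over all genes 2997 to 3632 rose and 2814 to 3077 fell. With limma voom on recovered reads, 2 nucleotide excision genes, 2 mismatch genes and 1 translesion polymerase fell and 2 translesion polymerases rose. Quantile normalization and recovered totals each gave 2 falling nucleotide excision genes, and recovered totals also 1 falling translesion polymerase. Over all genes, 5379 rose and 5045 fell with limma voom, and 4539 rose and 3588 fell with quantile normalization. A filter at a mean of 0.5 RPKM left 30 repair genes, of which 10 rose and 13 fell. That filter left 12212 genes in all, of which 3526 rose and 2730 fell.

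Same-numbered libraries did not deviate together (correlations of -0.025, -0.015 and -0.013). The values thus gave no sign of pairing by number, but they cannot show whether libraries were handled in pairs. With a replicate block, 9 repair genes rose and 11 fell, 6 of them in base excision and 0 in nucleotide excision repair, and over all genes 2827 rose and 2479 fell. Calls lost with the block included OGG1 and LIG3 (limma adjusted p = 0.0623 and 0.0707), which held when any 1 library was left out.

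Directions reversed in genes that did not pass the test. The log2 fold changes were 0.037 for POLB, 0.016 for TDG and 0.00062 for PMS2 with quantile normalization, and -0.045 for ERCC1, -0.038 for ERCC4 and -0.050 for ERCC8 with recovered totals. Leaving out 1 library gave -0.048 to 0.023 for POLB, -0.051 to 0.021 for TDG and -0.072 to 0.012 for PMS2. The cause was not tested.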
